A study of Mus musculus with 6 samples.

Results

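AP-1 is a family of paired transcription factors built from Fos and Jun proteins, and its genes belong to the immediate early genes, which cells switch on within minutes of a stimulus without first making new protein. Followed here by name were 10 such genes in cultured Schwann cells (SCs), the glia of peripheral nerves: the Fos family genes *Fos*, *Fosb*, *Fosl1* and *Fosl2*, the Jun family genes *Junb* and *Jund*, the zinc finger genes *Egr1* and *Egr3*, the stress-inducible *Atf3*, and *Ier2*. They were 10 of the 55401 genes listed in the count table, found by their Ensembl identifiers, and all 10 were among the 22318 genes tested. They were taken by name, with no measured value in the rule, but the list was drawn up with earlier results of these data known.

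The data are bulk poly(A) RNA-seq of primary SCs grown from dorsal root ganglia (DRG) of adult mice, with 3 cultures from WT mice and 3 from *Plxnb1*-/- mice, which lack the semaphorin receptor Plexin-B1. The *Plxnb1* allele is a constitutive knockout that carries a *lacZ* reporter cassette behind a transmembrane domain, so every cell type in a *Plxnb1*-/- dish carried it, and the mouse lines were kept on a C57BL/6 background. All 6 cultures were grown in medium with serum, neuregulin and forskolin, a drug that raises cyclic AMP, and all were depleted of fibroblasts with an anti-Thy1 antibody and passaged. No culture was stimulated or left without serum for this experiment as far as the labels and methods state, so the levels below are those of growing cultures and not of an acute response. The sources used here do not give the number of animals behind a culture or their sex, and the p-values measure the spread between these cultures only.

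Fos proteins cannot bind DNA alone and pair with a Jun protein to bind the TRE, the AP-1 site TGA(C/G)TCA. Pairs that contain ATF or CREB proteins favor the cyclic AMP response element TGACGTCA. In SCs, c-Jun, the product of *Jun*, is known as a driver of the repair state that follows nerve injury, and Egr2 (Krox20) as the driver of myelination. *Jun* and *Egr2* are given below for scale.

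Since the medium raises cyclic AMP, the start of each gene was searched for the letters of the cyclic AMP response element and of other sites named below. RefSeq promoter windows of build GRCm38.p6, each from 250 bases before to 50 bases after a transcription start, were on hand for 6 of the 10 genes, *Fos*, *Fosb*, *Fosl2*, *Junb*, *Jund* and *Atf3*. The core of the cyclic AMP response element, TGACG, searched like all motifs on both strands, lay in 4 of these 6 windows and in 20.8% of all 32851 windows. *Fos* had it at 129 and at 66 bases before the start, *Fosb* at 60 and *Junb* at 106, while *Atf3* had it on the opposite strand at 7 bases before the start. None of the 6 windows held TGANTCA, a pattern wider than the TRE that allows any middle base, found in 7.81% of all windows. Nor did any hold the full element TGACGTCA, found in 1.79%, the CArG box bound by SRF, found in 1.63%, or the Egr site GCGTGGGCG, found in 0.612%. The 2 motifs overlap by design, since TGACGTCA contains TGACG on each strand. These matches describe letters within a short window and say nothing of binding. The 150 bases before the start are shown for the 3 genes whose window held TGACG on the gene's own strand, with TGACG in capitals, because they gave 3 different readouts between the genotypes: *Fos* was higher in each *Plxnb1*-/- culture, *Junb* lower in each, and *Fosb* overlapped.
Fos, chr12:85473740-85473889, plus strand: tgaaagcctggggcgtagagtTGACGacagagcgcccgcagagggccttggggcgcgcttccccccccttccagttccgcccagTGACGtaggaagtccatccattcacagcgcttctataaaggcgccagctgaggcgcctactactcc
Fosb, chr7:19310046-19310195, minus strand: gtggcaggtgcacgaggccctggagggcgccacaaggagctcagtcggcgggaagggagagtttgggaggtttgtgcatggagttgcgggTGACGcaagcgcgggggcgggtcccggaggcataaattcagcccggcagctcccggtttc
Junb, chr8:84978749-84978898, minus strand: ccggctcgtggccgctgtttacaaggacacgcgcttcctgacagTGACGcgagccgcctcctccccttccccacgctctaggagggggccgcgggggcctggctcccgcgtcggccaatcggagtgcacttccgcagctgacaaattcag

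Before the genes themselves, some facts of the libraries bear on all of them. The libraries held from 59252048 to 77280964 counts. Levels are in CPM, which relates each count to its library's total after TMM scaling, and a detection floor of 3 counts equals 0.0388 to 0.0506 CPM, which covers counting error only. *Plxnb1* itself was measured at 61.8, 45.4 and 96.4 CPM in WT replicates 1, 2 and 3 and at 13.1, 16.6 and 18.6 CPM in *Plxnb1*-/- replicates 1, 2 and 3, so the libraries match their labels. SC markers were strongly expressed, with *Sox10*, the lineage factor of SCs, at 486 ± 47.8 CPM in WT (SD, n = 3). Summed over 9 SC markers the level was between 2340 and 2779 CPM in WT and between 2812 and 3172 CPM in *Plxnb1*-/- cultures, and over 7 fibroblast markers between 6463 and 8204 CPM in WT and between 5687 and 6013 CPM in *Plxnb1*-/- cultures, so neither sum overlapped between the genotypes. Mitochondrial genes took 0.333 to 0.350% of counts in WT and 0.363 to 0.424% in *Plxnb1*-/- libraries, and the 10 genes with the most counts 4.80 to 5.58% and 4.41 to 4.64%, again without overlap, and their part in the results below was not tested. WT replicate 2 stood apart from the other libraries, with the highest fibroblast and the lowest SC marker sum. In bulk RNA, fewer cells of a type and less RNA per cell cannot be told apart.

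None of the 10 genes was called different between the genotypes by edgeR's quasi-likelihood test, with the adjusted p (Benjamini-Hochberg over all 22318 genes) between 0.266 and 0.976. To be called, a gene had to pass 0.05 in adjusted p and 0.25 in the size of its log2 fold change, which 8 genes did, or 0.0358% of those tested. *Plxnb1* was among these by a narrow margin, with a log2 fold change of -2.08 and an adjusted p of 0.0449 in edgeR's quasi-likelihood test. In limma's voom its adjusted p was 0.108, so the lack of a call does not show equal levels. DESeq2, the tool of the study, called 1 of the 10, *Junb*, which was lower in *Plxnb1*-/- SCs, against 2.18% of the 15393 genes to which it gave an adjusted p (1.17% on the lower side). Without the condition on size, DESeq2 passed 2 of the 10, *Junb* and *Jund*, against 2.44% of genes. edgeR without the filter on low counts also called 1 of the 10, again *Junb*, against 0.949% of 31191 genes. At an unadjusted p below 0.05 in edgeR, 4 of the 10 genes passed, *Fos* on the higher side and *Junb*, *Jund* and *Ier2* on the lower, against 13.7% of all genes tested. The lowest and highest level of the genotypes did not overlap for 5 of the 10, of which 2 were higher (*Fos* and *Fosl1*) and 3 lower (*Junb*, *Jund* and *Ier2*) in *Plxnb1*-/- cultures, against 19.7% of all genes tested (9.3% higher and 10.4% lower) and 23.3% of those with a mean of at least 1 CPM. In all, 6 of the 10 had a log2 fold change below 0, with a median of -0.03 against 0.00 over all tested genes, of which 48.5% were below 0. Every one of the 10 had at least 224 counts in each library, so none was tested on a thin count.

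**Figure D1:**
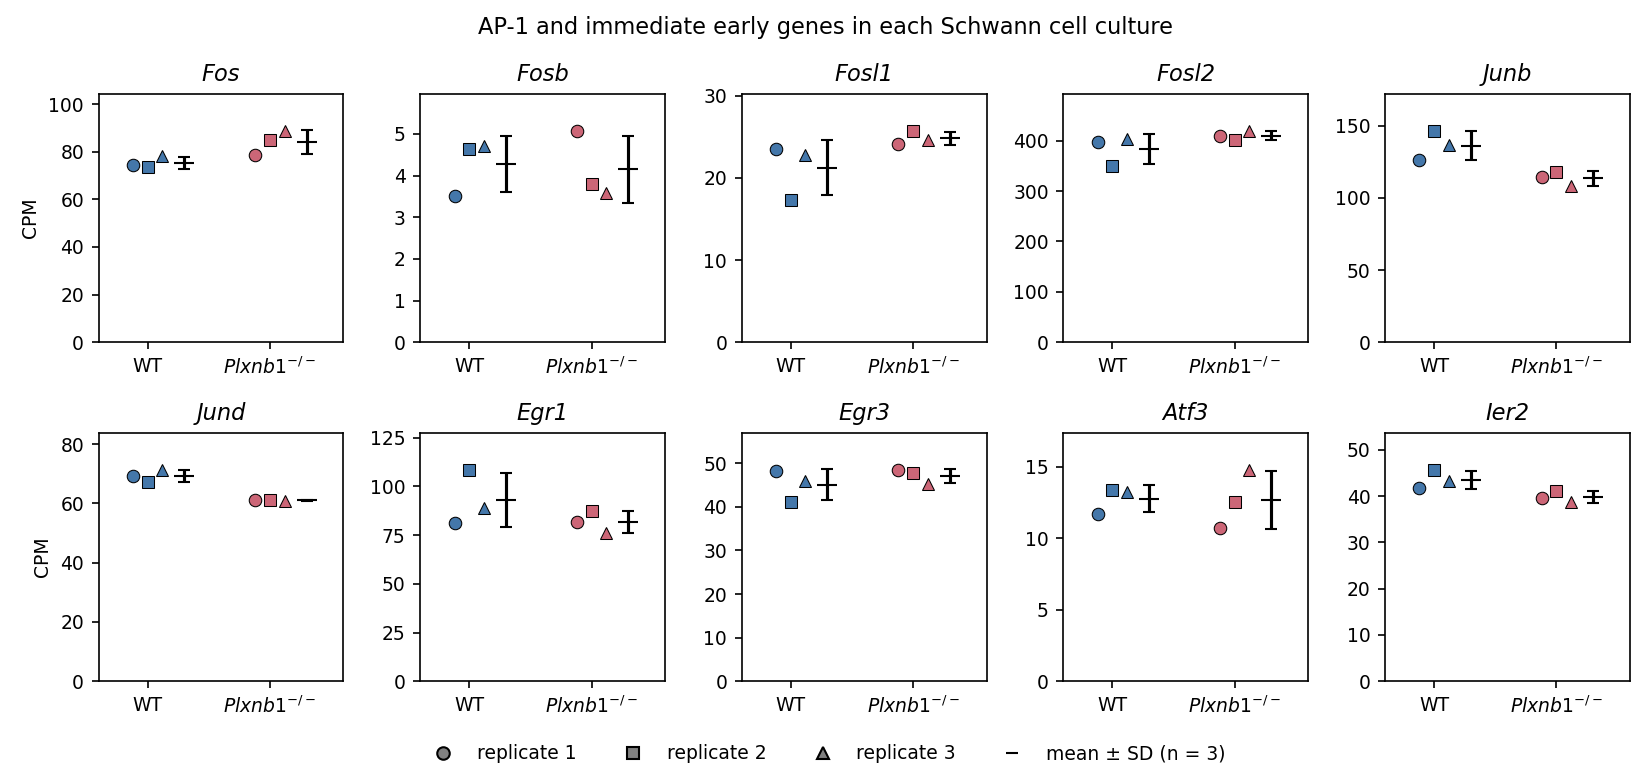
Level of each gene in CPM (linear axis from 0) in the 3 WT (blue) and 3 *Plxnb1*-/- (red) cultures, with a symbol for each replicate number and the mean ± SD beside the points. *Junb*, *Jund* and *Ier2* were lower in all 3 *Plxnb1*-/- cultures, *Fos* and *Fosl1* were higher in all 3, and the other 5 genes overlapped.

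Among the Fos family, *Fos*, the prototype immediate early gene, lies at chr12:85473890-85477273 on the plus strand (GRCm38). It was measured at 74.3, 73.6 and 78.2 CPM in WT replicates 1, 2 and 3 and at 78.5, 85.0 and 88.5 CPM in *Plxnb1*-/- replicates 1, 2 and 3. All 3 *Plxnb1*-/- cultures were above all 3 WT cultures, but WT replicate 3 and *Plxnb1*-/- replicate 1 were only 0.251 CPM apart. The log2 fold change of *Plxnb1*-/- over WT was 0.16 (SE 0.05, 95% interval 0.04 to 0.28), with an adjusted p of 0.295 in edgeR's quasi-likelihood test and 0.191 in DESeq2.

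*Fosl2* (Fra-2, chr5:32135801-32157842, plus strand), a Fos protein without the strong activation domain of c-Fos, gave the most counts of the 10 genes. Its levels were 398, 350.2 and 404 CPM in the WT and 410.3, 401 and 418 CPM in the *Plxnb1*-/- replicates. Only WT replicate 2 was clearly low, and *Plxnb1*-/- replicate 2 lay below WT replicate 3, so the groups overlapped. *Fosl2* had a log2 fold change of 0.09 (SE 0.06, 95% interval -0.04 to 0.23, adjusted p 0.506 in edgeR's quasi-likelihood test), and it was 0.04 without WT replicate 2.

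*Fosl1* (Fra-1, chr19:5447547-5455946, plus strand), which is itself switched on by AP-1 and ERK signaling in many cells, was at 23.5, 17.4 and 22.8 CPM in WT and at 24.1, 25.7 and 24.7 CPM in *Plxnb1*-/- cultures. The *Plxnb1*-/- cultures were tightly grouped, and WT replicate 2 was the outlying value. The log2 fold change of 0.22 (SE 0.10, 95% interval -0.01 to 0.46, adjusted p 0.377 in edgeR's quasi-likelihood test) went down to 0.10 once that culture was left out. Of the exons of *Fosl1*, 57.2% also lie in exons of *Ccdc85b* on the opposite strand, and the strand setting of the counting is not given in the sources used here, so reads of the pair may have been shared. For *Ccdc85b* the log2 fold change was 0.01 (adjusted p 0.957 in edgeR's quasi-likelihood test).

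*Fosb* (chr7:19302696-19310051, minus strand), which is best known for its long-lived splice form in neurons, was the lowest of the 10 genes. It was at 3.50, 4.63 and 4.70 CPM in WT and at 5.06, 3.81 and 3.58 CPM in *Plxnb1*-/- cultures, with the highest value in a *Plxnb1*-/- culture and the lowest in a WT culture. Its log2 fold change was -0.04 (SE 0.16, 95% interval -0.41 to 0.33, adjusted p 0.935 in edgeR's quasi-likelihood test), and the sign turned when any one of WT replicates 2 and 3 or *Plxnb1*-/- replicates 2 and 3 was left out. The interval still allows a difference in either direction that is larger than the one measured for *Junb*.

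The Jun family held the clearest differences of the 10 genes, both toward lower levels in *Plxnb1*-/- SCs. JunB acts as a weaker activator than c-Jun and can oppose it, and *Junb* lies at chr8:84974484-84978718 on the minus strand. It was measured at 126, 146 and 136 CPM in WT replicates 1, 2 and 3 and at 114, 118 and 108 CPM in *Plxnb1*-/- replicates 1, 2 and 3. The lowest WT culture was 8.14 CPM above the highest *Plxnb1*-/- culture. *Junb* had a log2 fold change of -0.26 (SE 0.06, 95% interval -0.40 to -0.13), the largest in size of the 10 genes. Its adjusted p was 0.0170 in DESeq2, where it was called, but 0.266 in edgeR's quasi-likelihood test and 0.280 in limma's voom. The same edgeR test without the filter on low counts gave 0.0350 and called it. With each culture left out in turn the fold change stayed between -0.31 and -0.21. *Prdx2*, on the opposite strand, shares 173 bases of exon with *Junb* (7.52% of its exon length), and for *Prdx2* the log2 fold change was -0.00 (adjusted p 0.972 in edgeR's quasi-likelihood test).

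*Jund* (chr8:70698949-70700616, plus strand), a gene of 1 exon that most cells express at a steady level and whose protein often restrains growth, was at 69.2, 67.1 and 71.1 CPM in WT and at 61.2, 61.2 and 60.7 CPM in *Plxnb1*-/- cultures. The *Plxnb1*-/- cultures were almost identical, with a coefficient of variation of 0.451%, and all lay at least 5.87 CPM below the WT cultures. The log2 fold change was -0.18 (SE 0.04, 95% interval -0.27 to -0.09), with an adjusted p of 0.266 in edgeR's quasi-likelihood test. DESeq2 gave it an adjusted p of 0.0397, but its fold change is under the size needed for a call. With a culture left out, the fold change of *Jund* stayed between -0.20 and -0.16, the narrowest such range of the 10 genes. An antisense gene, *Gm11175*, covers 52.6% of *Jund* on the opposite strand, and its counts were between 0.520 and 0.534 of those of *Jund* in every library. *Gm11175* was also lower in each *Plxnb1*-/- culture, with a log2 fold change of -0.17 (SE 0.05, adjusted p 0.273 in edgeR's quasi-likelihood test), and without the strand setting the reads of the pair cannot be told apart.

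*Jun*, the remaining gene of the family, had a fold change near 0. It was at 386 ± 21.8 CPM in WT and at 395 ± 24.5 CPM in *Plxnb1*-/- cultures (SD, n = 3 each), with overlapping cultures and a log2 fold change of 0.03 (SE 0.06, 95% interval -0.10 to 0.17, adjusted p 0.854 in edgeR's quasi-likelihood test). A difference between the fold changes of *Jun* and *Junb* was not tested.

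**Figure D2:**
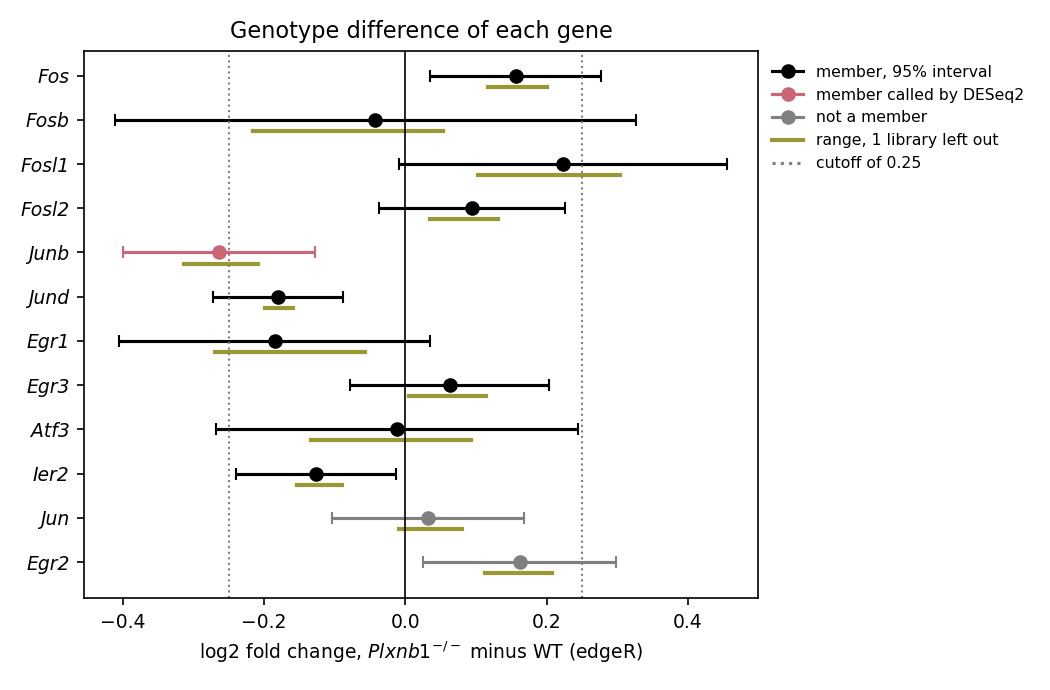
Log2 fold change of *Plxnb1*-/- over WT for the 10 genes, with *Jun* and *Egr2* in gray as genes outside the 10 (x axis, edgeR), with 95% intervals, the range over fits that leave out 1 culture as a lower bar, and dotted lines at an absolute value of 0.25. *Junb* (red) is the gene called by DESeq2, with -0.26, and the intervals of *Fos*, *Junb*, *Jund*, *Ier2* and *Egr2* leave out 0.

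*Egr1* and *Egr3* encode zinc finger activators that growth factors induce through ERK, and the Egr family also holds the myelin regulator *Egr2*. *Egr1* (chr18:34859823-34864984, plus strand) was at 81.3, 108 and 88.9 CPM in WT and at 81.6, 87.2 and 76.0 CPM in *Plxnb1*-/- cultures. WT replicate 2 was the highest of the 6, and the remaining cultures overlapped. With all cultures, its log2 fold change was -0.18 (SE 0.10, 95% interval -0.41 to 0.04, adjusted p 0.436 in edgeR's quasi-likelihood test), and without WT replicate 2 it was -0.06.

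*Egr3* (chr14:70077203-70082614, plus strand) was at 48.2, 41.2 and 46.0 CPM in WT and at 48.4, 47.8 and 45.3 CPM in *Plxnb1*-/- cultures. Again WT replicate 2 was the value apart, here on the low side. The log2 fold change of *Egr3* was 0.06 (SE 0.06, 95% interval -0.08 to 0.20, adjusted p 0.692 in edgeR's quasi-likelihood test), and 0.01 without that culture. *Egr2* was at 122 ± 6.68 CPM in WT against 136 ± 9.16 CPM in *Plxnb1*-/- cultures (SD, n = 3 each), which overlapped, with a log2 fold change of 0.16 (SE 0.06, adjusted p 0.315 in edgeR's quasi-likelihood test).

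*Atf3* (chr1:191170296-191218039, minus strand), which nerve injury and cell stress induce in sensory neurons and SCs, was low in all cultures. It was at 11.7, 13.4 and 13.2 CPM in WT and at 10.7, 12.6 and 14.8 CPM in *Plxnb1*-/- cultures, so both the lowest and the highest value belonged to *Plxnb1*-/- cultures. Its log2 fold change was -0.01 (SE 0.11, 95% interval -0.27 to 0.24, adjusted p 0.976 in edgeR's quasi-likelihood test), and it turned positive without WT replicate 2, WT replicate 3 or *Plxnb1*-/- replicate 1.

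*Ier2* (chr8:84661331-84662852, minus strand), a gene of 1 exon for a nuclear protein induced by growth factors, was at 41.7, 45.5 and 43.2 CPM in WT and at 39.6, 41.2 and 38.7 CPM in *Plxnb1*-/- cultures. The genotypes did not overlap, though by only 0.485 CPM. *Ier2* differed by -0.13 on the log2 scale (SE 0.05, 95% interval -0.24 to -0.01, adjusted p 0.332 in edgeR's quasi-likelihood test).

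Levels of different genes can be set side by side only per length, and CPM was divided for this by the kilobases of annotated exon of each gene. On this scale *Jun* was the highest of all, at 122 CPM per kb over the 6 cultures, and *Junb* followed at 54.2 CPM per kb. *Fosl2* at 41.0, *Jund* at 39.0, *Egr2* at 37.9 and *Fos* at 33.9 CPM per kb came next, each overlapping its neighbor in this order. Clear steps led from *Fos* to *Ier2* at 27.4 and on to *Egr1* at 19.4 CPM per kb. *Fosl1* at 11.3 and *Egr3* at 10.5 CPM per kb overlapped, *Atf3* stood at 5.91 and *Fosb* at 0.675 CPM per kb, both without overlap with the gene above. The order assumes that all annotated exons are used, so a gene transcribed in a short form would be placed too low. The aligner did not span introns, so reads across exon junctions may be lost in genes of several exons. Genes of 1 exon, such as *Jund* and *Ier2*, have no such reads. The effect of this on the order and on the family shares below was not tested.

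**Figure D3:**
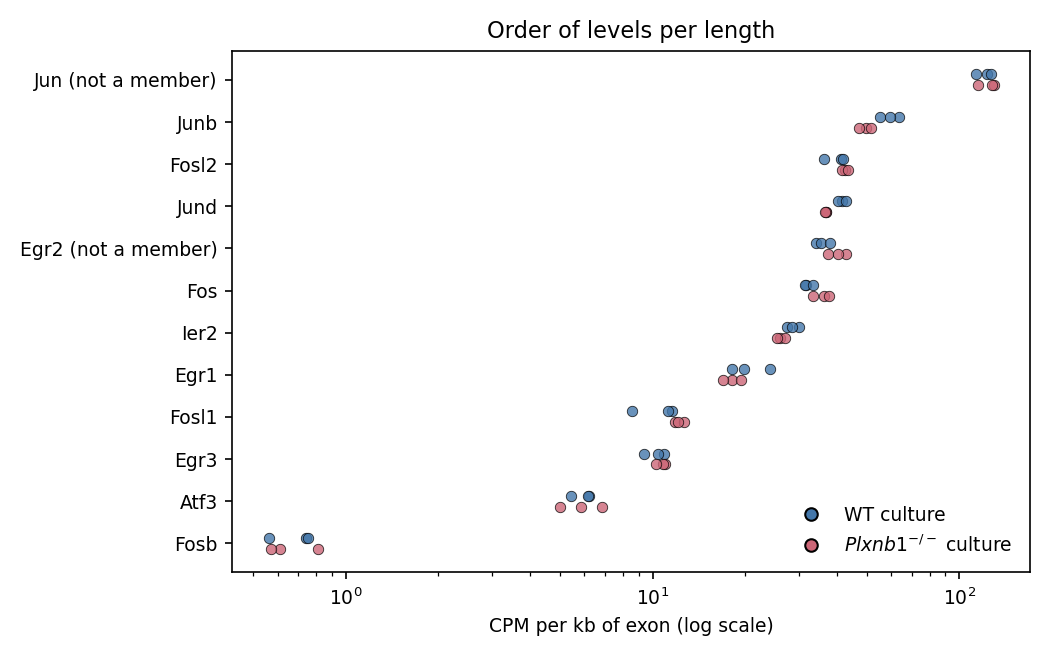
CPM per kb of annotated exon (log axis) of the 10 genes and of *Jun* and *Egr2*, ordered by their mean, with a point for each WT (blue) and *Plxnb1*-/- (red) culture. *Jun* lies highest at 122 and *Fosb* lowest at 0.675 CPM per kb, and the gap between *Jun* and *Junb* is wider than the spread of either.

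Within the Fos family, *Fosl2* made up 47.9 ± 0.658% and *Fos* 38.8 ± 1.80% of the summed CPM per kb in WT (SD, n = 3), while *Fosl1* made up 12.6 ± 1.28% and *Fosb* 0.831 ± 0.156%. The shares in *Plxnb1*-/- cultures were 46.6 ± 1.21%, 39.3 ± 1.34%, 13.4 ± 0.472% and 0.734 ± 0.161% (SD, n = 3), and each share overlapped between the genotypes. The family's sum was 84.8, 76.7 and 86.9 CPM per kb in WT and 88.4, 90.8 and 93.6 CPM per kb in *Plxnb1*-/- replicates 1, 2 and 3, with no overlap. Of all genes tested, 19.7% likewise did not overlap. Exons of *Fosl1* overlap those of *Ccdc85b*, so its level per kb, its share and this sum may hold or lack reads shared with that gene.

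Among the Jun genes, *Jun* made up 56.0, 52.3 and 55.5% of the summed CPM per kb in WT and 57.1, 59.4 and 60.4% in *Plxnb1*-/- cultures. *Junb* made up 26.7 ± 2.19% in WT and 23.5 ± 1.19% in *Plxnb1*-/- cultures, and *Jund* 18.7 ± 0.217% and 17.5 ± 0.683% (SD, n = 3 each). None of these 3 shares overlapped between the genotypes, with *Jun* taking the larger share in the *Plxnb1*-/- cultures. The margins were narrow, with the lowest WT and the highest *Plxnb1*-/- share at 25.1 and 24.6% for *Junb* and at 18.5 and 18.2% for *Jund*. Levels of single genes did not overlap for 19.7% of all genes tested, and no such figure was computed for shares. Shares of a sum are tied to each other and rest on the same counts as the fold changes, so no test was run on them. The level and share of *Jund* may likewise hold or lack reads shared with *Gm11175*.

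WT replicate 2 was the highest or lowest of the WT cultures for 9 of the 10 genes, against 74.6% of all tested genes. It was the highest WT culture for *Junb*, *Egr1*, *Atf3* and *Ier2* and the lowest for *Fos*, *Fosl1*, *Fosl2*, *Jund* and *Egr3*. Its log2 CPM minus the mean of the other WT cultures ran from -0.41 for *Fosl1* to 0.35 for *Egr1*. Without this culture 5 of the 10 genes still did not overlap between the genotypes, against 25.9% of all tested genes, with 2 higher and 3 lower, and 4 of the 10 rather than 6 had a log2 fold change below 0. At an unadjusted p below 0.05 in edgeR's quasi-likelihood test, 1 gene was then higher and 2 were lower, against 1115 higher and 916 lower of all 22318.

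Marker sums of mural cells, neurons and macrophages did not overlap between the genotypes, while that of endothelial cells did. *Thy1*, the antigen used to remove fibroblasts, had a mean of 524 ± 115 CPM in WT against 401 ± 14.7 CPM in *Plxnb1*-/- cultures (SD, n = 3). Most of the fibroblast sum was *Col1a1*, and without it the remaining 6 markers summed to between 767 and 1109 CPM in WT and between 781 and 789 CPM in *Plxnb1*-/- cultures, which overlapped. Mural cell markers (5 genes) summed to between 1847 and 2477 CPM in WT and between 1663 and 1801 CPM in *Plxnb1*-/- cultures. Neuron markers (7 genes, mostly *Tubb3*) summed to between 142 and 157 against between 159 and 177 CPM, and macrophage markers (5 genes) to between 23.0 and 25.3 against between 26.6 and 29.3 CPM. Endothelial markers (4 genes) summed to between 57.4 and 76.9 against between 59.9 and 65.7 CPM. No marker was at 0 in all libraries, though 2 of the 7 neuron markers, 1 fibroblast marker (*Dpt*) and 1 macrophage marker (*Aif1*) were below 1 CPM in each. The part of other cells in the levels of the 10 genes was not tested.

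By gene, 8 of 9 SC markers, 7 of 7 neuron markers and 5 of 5 macrophage markers had a log2 fold change above 0, with medians of 0.19, 0.48 and 0.25. Of the fibroblast markers 6 of 7, of the mural markers 3 of 5 and of the endothelial markers 4 of 4 had one below 0, with medians of -0.30, -0.13 and -0.50. Without WT replicate 2 these lists had 4 of 7, 3 of 5 and 3 of 4 below 0, with medians of -0.14, -0.03 and -0.22. DESeq2 called *Col1a1* and *Acta2*, both lower, and edgeR's quasi-likelihood test called none of the markers. At an unadjusted p below 0.05, 7 SC, 1 neuron and 2 macrophage markers were higher, 3 fibroblast and 2 mural markers were lower, and 0 endothelial markers passed, where 13.7% of all genes passed. Heat shock genes, whose rise can mark stress while cells are harvested, summed to between 2241 and 2368 CPM in WT and between 2193 and 2239.8 CPM in *Plxnb1*-/- cultures, and 9 of 10 had a log2 fold change below 0 (median -0.08), from *Hspe1* at -0.20 to *Bag3* at 0.09 (-0.12 and 0.04 without WT replicate 2). Of these, 2 reached an unadjusted p below 0.05 in edgeR's quasi-likelihood test, both on the lower side, against the same 13.7% of all genes.

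Other immediate early genes were taken as a list of 41, all tested. Of these, 28 had a log2 fold change below 0 and 13 above, with a median of -0.11, and 15 were lower and 7 higher at an unadjusted p below 0.05, where 13.7% of all genes passed. edgeR called none and DESeq2 called 4, against 2.18% of all genes. *Klf2*, a zinc finger gene best known from endothelial cells under flow, was at 12.6 ± 1.07 CPM in WT against 8.53 ± 0.806 CPM in *Plxnb1*-/- cultures (SD, n = 3), with a log2 fold change of -0.56 (SE 0.09, adjusted p 0.168 in edgeR's quasi-likelihood test and 8.06e-05 in DESeq2). *Gadd45b* and *Gadd45g*, stress genes linked to growth arrest and DNA demethylation, were also called lower by DESeq2, each with a log2 fold change of -0.48 (adjusted p 0.00745 and 0.0126 in DESeq2). *Nr4a1*, an orphan nuclear receptor that cyclic AMP induces, was called higher by DESeq2, with a log2 fold change of 0.30 (SE 0.08, adjusted p 0.0452 in DESeq2). Without WT replicate 2 the log2 fold changes of *Klf2*, *Gadd45b*, *Gadd45g* and *Nr4a1* were -0.49, -0.33, -0.33 and 0.21. *Arc* was the highest of the list with a level of at least 1 CPM, at 0.47 (SE 0.27) and 0.22 without WT replicate 2, and its cultures overlapped. Without WT replicate 2 the list had 27 genes below 0 and 14 above, a median of -0.07, and 5 lower and 6 higher genes at an unadjusted p below 0.05, so at that threshold the lower side no longer outnumbered the higher. Its median was -0.05 without *Plxnb1*-/- replicate 3.

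**Figure D4:**
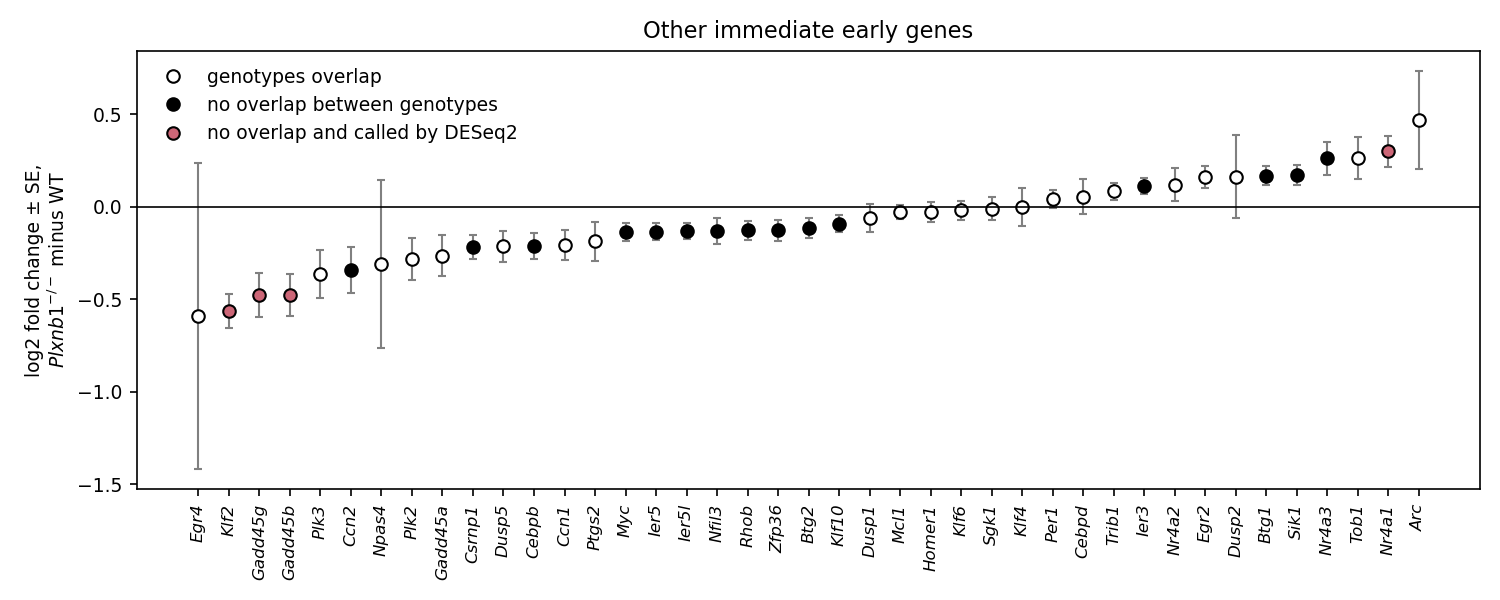
Log2 fold change ± SE of *Plxnb1*-/- over WT (y axis, edgeR) for 41 other immediate early genes in rising order, filled where the cultures of the genotypes did not overlap and red where DESeq2 also called the gene. *Klf2*, *Gadd45g*, *Gadd45b* (lower) and *Nr4a1* (higher) are red, and 28 of the 41 lie below 0.

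Next to AP-1 stand its partners, which pair with Fos or Jun proteins or bind like sites. Of 16 other AP-1 and bZIP genes, all tested, 10 were below 0 and 6 above, with a median log2 fold change of -0.05, and neither tool called one. At an unadjusted p below 0.05 in edgeR's quasi-likelihood test, 1 was higher and 2 were lower, where 13.7% of all genes passed. *Maf*, a large bZIP factor, was the highest at 0.29 (SE 0.10), and *Ddit3* (CHOP), a factor of the unfolded protein response, the lowest at -0.26 (SE 0.11). Without WT replicate 2 these were 0.17 and -0.13. The median of the list was -0.02 without that culture, -0.01 without WT replicate 3 and -0.01 without *Plxnb1*-/- replicate 1.

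Upstream of the 10 genes, SRF and its partners, CREB and its coactivators, and ERK and related kinases carry signals to their promoters. The related kinases include those of *Mapk8*, *Mapk9* and *Mapk14* (JNK and p38). Of 23 such genes 14 were above 0 and 9 below, with a median of 0.01, and again neither tool made a call, while 3 were higher and 3 lower at an unadjusted p below 0.05 in edgeR's quasi-likelihood test, where 13.7% of all genes passed. *Rps6ka1* (RSK1), a kinase activated by ERK, was the highest at 0.31 (SE 0.11), or 0.19 without WT replicate 2, and *Srf* itself the lowest at -0.15 (SE 0.05). Feedback inhibitors of ERK signaling, which rise when the route is active, numbered 8, of which 6 were above 0 with a median of 0.07. *Spry4* was the highest, at 0.25 (SE 0.07), and *Spry1* the lowest, at -0.36 (SE 0.21), or -0.13 without WT replicate 2. At an unadjusted p below 0.05, 2 of the 8 were higher, against the same 13.7% of all genes, with no call by either tool.

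Downstream, 26 of 27 target genes of AP-1 or Egr proteins were tested, all but *Olig1*. Of these, 18 had a log2 fold change below 0 and 8 above, with a median of -0.07, and 8 were lower and 4 higher at an unadjusted p below 0.05 in edgeR's quasi-likelihood test, where 13.7% of all genes passed. edgeR called none, and DESeq2 called 4, all lower, against 1.17% of all genes on that side. *Mmp9*, a matrix metalloproteinase, was at 7.64 ± 2.62 CPM in WT against 4.17 ± 0.966 CPM in *Plxnb1*-/- cultures (SD, n = 3), with a log2 fold change of -0.87 (SE 0.24, adjusted p 0.00967 in DESeq2), or -0.57 without WT replicate 2. *Plau*, the urokinase, and *Plaur*, its receptor, had log2 fold changes of -0.45 (adjusted p 0.0149 in DESeq2) and -0.30 (adjusted p 0.00709 in DESeq2). *Vegfa*, an angiogenic growth factor, had one of -0.45 (adjusted p 0.0197 in DESeq2). Without WT replicate 2 the log2 fold changes of *Plau*, *Plaur* and *Vegfa* were -0.32, -0.27 and -0.33. *Mmp3* was the highest of the list, at 0.32 (SE 0.10). Without WT replicate 2 the list had 16 genes below 0 and 10 above, a median of -0.04, and 5 lower and 3 higher genes at that p. Without WT replicate 3 the median was -0.12.

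Among 14982 other genes with a mean of at least 1 CPM, the pattern most like that of *Jund*, the gene of the 10 with the smallest unadjusted p, belonged to its antisense neighbor *Gm11175*. Likeness was measured as the root mean square difference of centered log2 CPM over the 6 libraries, which was 0.0136 for this pair and 0.128 for the median gene. *Gm11175* covers 52.6% of the exons of *Jund*, and without the strand setting their reads cannot be told apart. The likeness of this pair may thus rest on the same reads and is no independent result. *Gm15459*, *Nr2f6*, *Gm44729* and *Mtfmt* followed, at 0.0272, 0.0290, 0.0299 and 0.0305. The mean pattern of the 10 genes, in which their opposite differences cancel, was nearly flat, and the genes most like it were *Chfr*, *Ube3b*, *Tvp23b*, *Fam174a* and *Mxra7*, with differences between 0.00929 and 0.0137 against a median of 0.0918.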

How the data were processed

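Poly(A) RNA of 6 SC cultures, 3 WT and 3 *Plxnb1*-/-, was grouped by the genotype in the sample labels. The authors trimmed reads with Trim Galore 0.6.5, aligned them to mm10 with Bowtie2 2.4.1, which does not span introns, removed duplicates with SAMtools 1.10 and counted with featureCounts. The deposited counts are on exons and not normalized. The authors also deposited FPKM values, whose length equals the span of the gene in about 99.5% of genes compared, within 1%. No reads were aligned again. Positions and symbols came from a GENCODE release for GRCm38 that is older than the authors' release, matched for 55141 of 55401 genes.

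Genes that reached 2 counts in 5 or more libraries entered edgeR 4.0.16 (TMM factors, quasi-likelihood test, genotype only) under R 4.3.3, with Benjamini-Hochberg adjustment over all of them. Standard errors came from the fold change and the F statistic. Alternatives were DESeq2 1.42.0, other scalings, limma 3.58.1 (voom, and log2(FPKM + 0.1) or log2(FPKM + 1)), other filters, a term for the replicate number, no cutoff on the fold change and each library left out. Counts without WT replicate 2 were chosen after seeing the data.

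The 10 genes and the lists were chosen with earlier results of these data known. Named beside them were *Plxnb1*, *Jun*, *Egr2*, the highest and lowest gene of each list with a mean of at least 1 CPM, genes called by either tool and the nearest patterns. *Sox10*, *Thy1*, *Tubb3*, *Dpt*, *Aif1* and genes that overlap the 10 were added after their values were seen. Apart from overlapping neighbors, no other gene was covered at 90% identity or more by one of the 10. Same-numbered cultures of the genotypes showed little shared deviation (correlations across all tested genes of -0.02, 0.01 and 0.07). The labels do not say whether the numbers pair cultures, and a correlation across all genes cannot decide it.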

Additional observations from a re-analysis of the deposited data

How the results depend on the processing

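The number of genes called was 8 with edgeR's quasi-likelihood test and 335 with DESeq2, 296 without the filter on low counts, 5 with the replicate number as a block, 3 with limma on log2(FPKM + 0.1) and 3 on log2(FPKM + 1). It ran from 4 to 25 with a library left out, highest without WT replicate 2. Of the 10 AP-1 and immediate early genes, 0 were called with edgeR, 1 with DESeq2 and 1 without the filter, *Junb* in both cases. The cause of the difference between the tools was not tested. The block uses replicate numbers that are not stated to pair samples, and under it 0 of the 10 were called, with the lowest adjusted p at 0.190 (*Junb*, edgeR's quasi-likelihood test). Leaving out a library moved the log2 fold change of *Fosb* between -0.21 and 0.053 and that of *Atf3* between -0.13 and 0.094, each across 0, and these signs were the ones that turned among the 10 genes. Other scalings moved the median of all genes by -0.00072 and -0.0092 on the log2 scale. With 3 cultures a genotype, precision was lowest for *Fosb* (SE 0.16 on the log2 scale) and highest for *Jund* (SE 0.04).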
